A study of Mus musculus with 24 samples.

Results

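Of 49 listed mouse genes that serve cell division, 48 were measured among the 18193 genes of the array. They were listed by name from the known machinery, with earlier results of these data known: 29 act in mitosis and 19 in DNA replication. Each gene was read through 1 probe set, the brightest over 24 arrays among those annotated to that gene alone, and the deposited values are log2 signals. The remaining gene, Ccnb1, had no probe set annotated to it alone and was left out. The study sorted 4 haematopoietic progenitor populations from wild-type (WT) and Ikaros null (KO) mice with an Ikaros-based green fluorescent protein (GFP) reporter. LSK is the field's name for lineage-negative cells with Sca-1 and Kit, and LK for those with Kit but without Sca-1. The submitters equate LSK GFPneg-lo with haematopoietic stem cells (HSC), LSK GFPhi with lymphoid-primed multipotent progenitors (LMPP), LK GFPneg with megakaryocyte and erythroid progenitors (MEP) and LK GFPhi with granulocyte and macrophage progenitors (GMP). Each of the 8 groups had 3 arrays.

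All mice carried the B-p-GFP-C reporter transgene, whose line is given as C57BL/6 x C3H. The KO mice also carried the I74 Ikaros null allele, whose line is given as C57BL/6 x 129SV, so strain background and genotype cannot be told apart. No age or treatment is given, and the titles number the arrays as biological replicates, while nothing says whether each was 1 mouse or a pool. The p-values below therefore measure the spread between these arrays. Ikaros (Ikzf1) itself had mean log2 signals of 11.15 to 11.84 in the WT groups and 7.24 to 8.40 in the KO groups, with no overlap between any WT and any KO array. Signals of Eif2s3y, a gene of the Y chromosome, were 7.88 to 10.40 on all 12 WT arrays. They were between 3.99 and 4.14 on 7 of the 12 KO arrays and between 7.20 and 8.33 on the other 5, which were the 4 KO arrays numbered 2 and KO LK GFPhi replicate 3. The part of this difference in the KO comparisons was not tested. The 8 stem cell markers (such as Procr, Mecom and Hlf) had a mean log2 signal of 10.15 to 10.37 on the WT LSK GFPneg-lo arrays and 7.20 to 7.71 on the WT LK GFPhi arrays.

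A dividing cell first licenses its replication origins with the MCM helicase, fires them, copies its DNA with the help of the sliding clamp Pcna and of nucleotides from ribonucleotide reductase, and then condenses, aligns and separates its chromosomes. Replication genes are switched on at the G1/S boundary by E2F factors, while most mitosis genes are held down until G2 by repressor complexes that read a cell cycle homology region (CHR) near the start site. Long-term stem cells are known to be mostly quiescent and committed progenitors to cycle, and the RNA of these genes is widely used as a gauge of proliferation. In bulk samples such as these, fewer dividing cells and less of the RNA per dividing cell cannot be told apart.

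The promoters of both classes are shown for the sequences that the CHR and E2F regulators read. The window was 250 bases before to 50 bases after the annotated start in the RefSeq table of build GRCm38.p6, and 25 of the 29 mitosis genes and 15 of the 19 replication genes were matched to it. The 7 stretches printed here run from 150 bases before the start to the base before it, 5′ to 3′ on the gene's own strand, and the capitals mark a CHR (TTTGAA, or TTCAAA where it lies on the other strand) for the first 4 and an E2F motif for the last 3.
Cdk1, chr10:69352913-69353062, minus strand: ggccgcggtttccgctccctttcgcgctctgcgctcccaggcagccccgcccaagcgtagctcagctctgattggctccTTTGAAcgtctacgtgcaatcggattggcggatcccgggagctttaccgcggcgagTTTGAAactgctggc
Top2a, chr11:99024190-99024339, minus strand: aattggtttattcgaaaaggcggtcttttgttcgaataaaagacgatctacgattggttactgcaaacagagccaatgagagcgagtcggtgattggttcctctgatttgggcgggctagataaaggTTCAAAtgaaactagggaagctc
Ube2c, chr2:164769779-164769928, plus strand: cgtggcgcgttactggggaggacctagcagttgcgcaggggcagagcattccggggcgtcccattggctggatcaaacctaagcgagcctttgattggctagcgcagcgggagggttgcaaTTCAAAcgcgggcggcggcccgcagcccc
Kif11, chr19:37376232-37376381, plus strand: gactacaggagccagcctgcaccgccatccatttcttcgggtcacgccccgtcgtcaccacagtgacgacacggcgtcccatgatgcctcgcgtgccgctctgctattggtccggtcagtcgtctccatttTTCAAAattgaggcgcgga
Rrm1, chr7:102441545-102441694, plus strand: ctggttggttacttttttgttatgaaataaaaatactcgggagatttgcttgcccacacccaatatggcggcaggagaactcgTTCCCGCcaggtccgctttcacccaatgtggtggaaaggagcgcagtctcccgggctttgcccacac
Uhrf1, chr17:56303187-56303336, plus strand: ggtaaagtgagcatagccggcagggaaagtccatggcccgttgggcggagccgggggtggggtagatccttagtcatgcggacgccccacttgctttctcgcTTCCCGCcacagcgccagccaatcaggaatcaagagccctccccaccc
Mcm6, chr1:128359706-128359855, minus strand: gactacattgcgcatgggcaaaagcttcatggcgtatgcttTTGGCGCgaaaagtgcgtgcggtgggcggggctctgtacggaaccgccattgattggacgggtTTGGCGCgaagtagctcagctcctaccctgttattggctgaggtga

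Searched on both strands, TTTGAA was present in the window of 19 of 25 mitosis genes (76%), of 2 of 15 replication genes (13.3%), Cdc45 and Mcm2, and of 20.2% of the 27025 genes in the table. In Cdk1, the kinase that starts mitosis, it occurred in 2 places, with first bases at -71 and -15 from the start. In Ube2c and Kif11 the first base of the only match lay at -29 and -19, and in Top2a there were matches at -179, outside the printed stretch, and at -23. A CCAAT box (CCAAT) accompanied the CHR in 17 of 25 mitosis genes (68%), against 2 of 15 replication genes and 7.97% of all genes. The E2F motif TTCCCGC was found in 0 of 25 mitosis genes, in 6 of 15 replication genes (40%) and in 5.29% of all genes. A second E2F form, TTGGCGC, was found in 3 mitosis genes (12%), which were Cdk1, Ect2 and Mki67, in 4 replication genes (26.7%) and in 2.85% of all genes. Mcm6 held it in 2 places, with first bases at -109 and -46. CCAAT alone was in 20 of 25, 10 of 15 and 41.1%, and the GC box GGGCGG in 20 of 25, 11 of 15 and 38.2%. The AT-rich variant TTTAAA was in 7 of 25 (28%), 4 of 15 (26.7%) and 14.9%. Read on the other strand, TTGGCGC can share bases with a CCAAT box and TTCCCGC with a GC box. These matches describe letters only, in windows that the array did not measure.

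**Figure D1:**
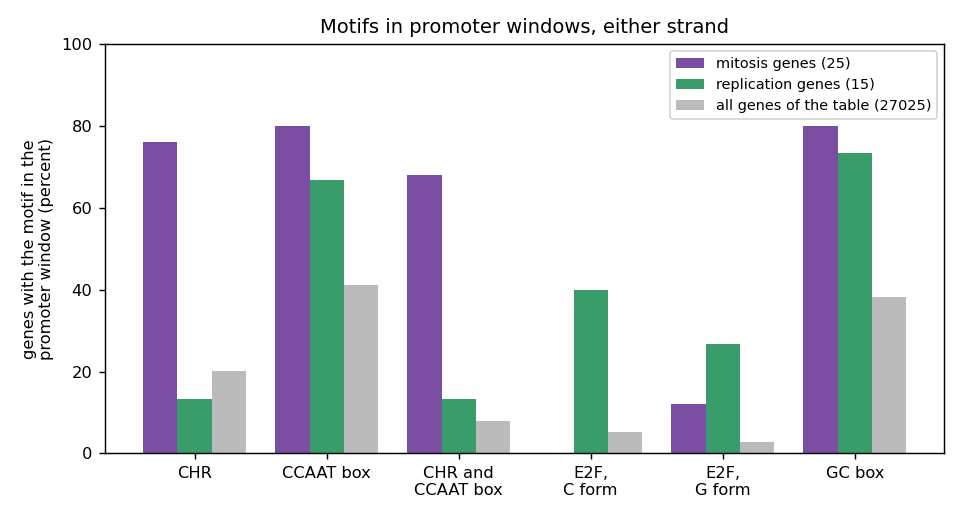
Percent of genes with each motif on either strand in any of their promoter windows, for 25 mitosis genes (purple), 15 replication genes (green) and all 27025 genes of the table (grey). CHR stands in 76% of the mitosis genes against 13.3% of the replication genes, and the C form of the E2F motif in 40% of the replication genes against no mitosis gene.

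In the WT mice, 28 of the 29 mitosis genes had their lowest mean in LSK GFPneg-lo and 28 their highest in an LK population. The exceptions were Cenpa, lowest in LSK GFPhi, and Cdc20, highest there. The median deviation of the mitosis genes from their 24-array means was -0.88, -0.70 and -0.31 on the 3 WT LSK GFPneg-lo arrays. It was -0.30, -0.43 and 0.04 in LSK GFPhi, 0.32, 0.22 and 0.54 in LK GFPneg and 0.26, -0.06 and 0.41 in LK GFPhi. Every LK array thus lay above every LSK GFPneg-lo array, while LSK GFPhi overlapped both LSK GFPneg-lo and LK GFPhi. Replication genes were ordered alike, with group means of -0.36 ± 0.17, -0.11 ± 0.08, 0.17 ± 0.04 and 0.13 ± 0.08 (SD, n = 3 arrays) in the same order of populations. The means of the 8 groups spanned a median of 1.11 log2 units for a mitosis gene and 0.76 for a replication gene, against 0.47 over all genes. The narrower range of replication genes depended on the probe sets chosen. Without those whose names end in _x or _s, which can match several transcripts, the median rise from LSK GFPneg-lo to LK GFPneg was 1.07 for replication and 0.98 for mitosis genes. The order LK GFPneg, LK GFPhi, LSK GFPhi, LSK GFPneg-lo from highest to lowest mean held for 17 mitosis and 9 replication genes, and the order with LK GFPhi first for 8 and 5. WT LSK GFPneg-lo had the lowest mean of all 8 groups for 25 of 29 mitosis and 15 of 19 replication genes.

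**Figure D2:**
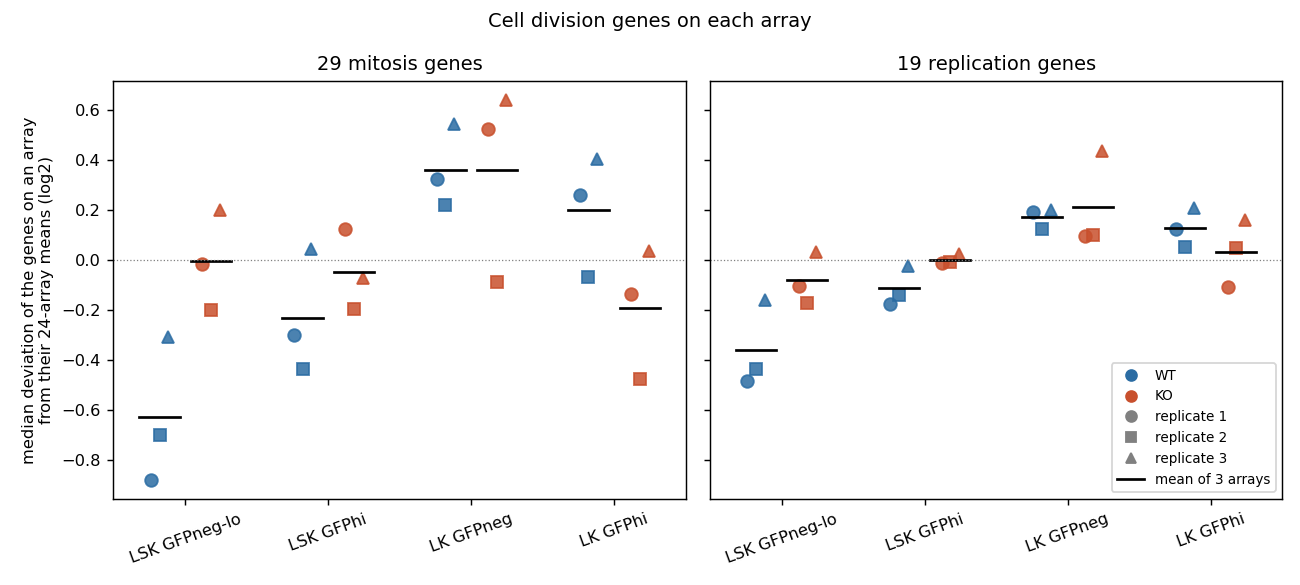
Median deviation of the 29 mitosis genes (left) and of the 19 replication genes (right) from their means over 24 arrays, in log2 units, for each array, with WT in blue, KO in red, a shape for each replicate number and a bar at the mean of 3 arrays. The WT mitosis bars climb from -0.63 in LSK GFPneg-lo to 0.36 in LK GFPneg and stand at 0.20 in LK GFPhi. The KO bars start at 0.00, also reach 0.36 in LK GFPneg and end at -0.19 in LK GFPhi.

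WT LK GFPneg cells exceeded WT LSK GFPneg-lo cells in 24 of 29 mitosis genes and 9 of 19 replication genes, and no member was lower (limma with Benjamini-Hochberg adjusted p under 0.05, as in all calls below). Over all genes 27.1% passed, 13.0% in the higher direction. The median difference was 0.95 for mitosis genes, a 1.93-fold change, and 0.55 for replication genes, a 1.46-fold change, while the median over all genes was 0.03. The dimmer probe sets that were not chosen had medians of 0.41 for mitosis (34 probe sets) and 0.62 for replication genes (31 probe sets). The arrays of the 2 groups did not overlap for 24 mitosis and 13 replication genes, against 40.4% of all genes.

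By role, all 4 centromere genes, all 3 cyclin and Cdk1 genes, all 4 mitotic kinases, both chromosome surface genes and all 3 cytokinesis genes rose, with 5 of 6 spindle checkpoint and ubiquitin ligase genes and 3 of 7 spindle motor and microtubule genes. Birc5, the survivin subunit that brings Aurora B to the centromere, had signals of 8.78, 8.61 and 9.42 in LSK GFPneg-lo and 10.65, 10.41 and 10.78 in LK GFPneg, a rise of 1.68 ± 0.35 (limma standard error, adjusted p = 0.00112). Every LK GFPneg array lay above every LSK GFPneg-lo array. Aurka, the kinase of the spindle poles, had 7.39, 7.42 and 7.90 against 9.21, 8.73 and 9.66, a rise of 1.63 ± 0.34 (limma adjusted p = 0.00116). Bub1, a spindle checkpoint kinase, had 9.26, 9.01 and 9.83 against 10.77, 10.85 and 11.32, a rise of 1.61 ± 0.31 (limma adjusted p = 0.000539). In all 3 genes replicate 3 was the highest LSK GFPneg-lo array and still lay below every LK GFPneg array. The dimmer probe sets of Aurka and Bub1, with mean signals of 7.18 and 8.20, differed by 0.41 and 0.82.

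Cenpa, the histone variant that marks centromeres, had 10.38, 10.93 and 10.93 in LSK GFPneg-lo, 10.54, 10.73 and 10.74 in LSK GFPhi, 12.05, 12.11 and 12.09 in LK GFPneg and 10.96, 10.97 and 11.17 in LK GFPhi. It stood apart in LK GFPneg alone among the WT groups, above LSK GFPneg-lo by 1.33 ± 0.16 (limma adjusted p = 2.19e-06) and above LSK GFPhi by 1.41 ± 0.16 (adjusted p = 8.19e-07). The proliferation marker Mki67, which coats mitotic chromosomes, had 12.28, 11.86 and 12.35 against 12.89, 12.70 and 13.11 in LK GFPneg, a rise of 0.74 ± 0.26 (limma adjusted p = 0.0402). Cdk1 rose by 1.02 ± 0.27, from 9.77, 9.89 and 10.29 to 11.12, 10.66 and 11.23, and its partner cyclin A (Ccna2) by 0.93 ± 0.17. Plk1, the kinase of mitotic entry, rose by 0.81 ± 0.18 and Aurkb, the kinase of the chromosomal passenger complex, by 0.95 ± 0.26. The 5 mitosis genes that did not pass were Cdc20, the mitotic activator of the anaphase ligase, with a difference of 0.13, the motors Kif23 (0.21), Kif2c (0.47) and Kif11 (0.71), and the spindle protein Nusap1 (0.47).

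Among replication genes the largest differences were those of the origin licensing factor Cdc6 and the G1 cyclin Ccne1. Cdc6 had 9.46, 9.38 and 9.99 in LSK GFPneg-lo against 10.98, 11.07 and 11.32 in LK GFPneg, a rise of 1.51 ± 0.21 (limma adjusted p = 1.25e-05). Ccne1 had 9.61, 10.69 and 10.53 against 11.95, 11.76 and 11.55, a rise of 1.48 ± 0.31 (limma adjusted p = 0.00121). Neither gene's arrays overlapped between the 2 groups. Ccne2 rose by 1.09 ± 0.23, Cdc45, which completes the active helicase, by 1.05 ± 0.25, and the ribonucleotide reductase subunits Rrm1 and Rrm2 by 1.08 ± 0.22 and 0.73 ± 0.11. A second Cdc45 probe set of similar brightness, 8.52 against 8.63, differed by 0.08. Gins2, a helicase cofactor, rose by 0.72 ± 0.16, Uhrf1, which carries DNA methylation through replication, by 0.55 ± 0.13, and the checkpoint kinase Chek1 by 0.36 ± 0.11. The Chek1 probe sets next in brightness differed by 1.37 and 1.13. Pcna had 12.71, 11.72 and 12.56 against 13.32, 12.70 and 13.66, and its difference of 0.90 ± 0.42 did not pass (limma adjusted p = 0.129). Replicate 2 had the lowest Pcna signal in each of the 8 groups. Thymidylate synthase (Tyms) differed by 0.64 ± 0.28 (limma adjusted p = 0.112), Gins1 by 0.53 and E2f1, the G1/S activator, by 0.19, and none of these passed.

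No MCM gene passed in this comparison, and their differences were 0.10 to 0.25. Mcm2 read 11.41, 11.70 and 11.53 in LSK GFPneg-lo against 11.65, 11.78 and 11.53 in LK GFPneg, and Mcm5 read 12.72, 13.02 and 13.06 against 12.84, 13.15 and 13.10. The arrays of the 2 groups overlapped for both genes. These readings come from the brightest probe set of each MCM gene, with mean signals of 11.7 to 13.1. The 13 other probe sets of the 6 MCM genes, with mean signals of 4.41 to 11.7, differed by a median of 0.65 between the same 2 groups, with a range of -0.11 to 1.24. Probe sets with names in _x or _s were the chosen ones for 10 of the 19 replication genes and 6 of the 29 mitosis genes. Over all members with several probe sets, a dimmer one gave a larger change than the brightest for 12 of 16 replication genes and 8 of 20 mitosis genes.

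**Figure D3:**
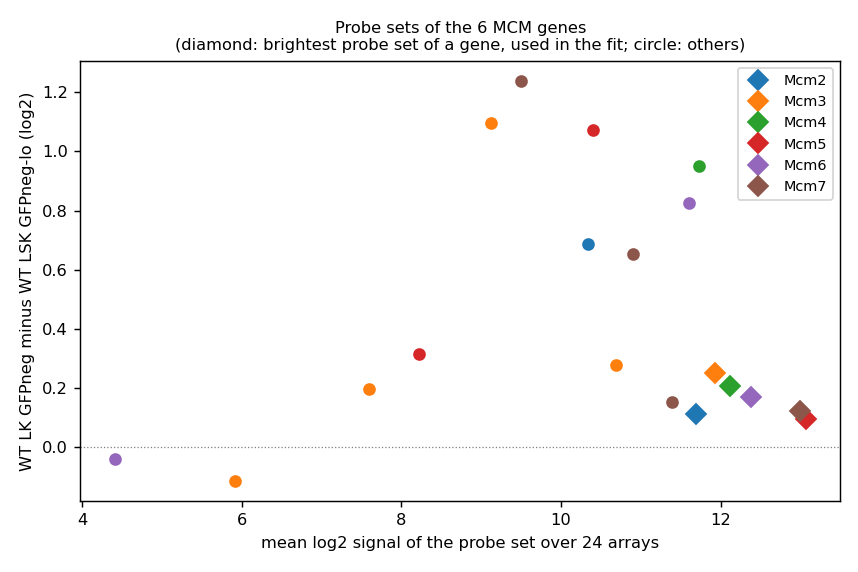
Difference between WT LK GFPneg and WT LSK GFPneg-lo (log2) against the mean log2 signal over 24 arrays for each probe set of the 6 MCM genes, with diamonds for the brightest probe set of a gene and circles for the others. The 6 diamonds lie at 0.10 to 0.25, while the circles reach 1.24.

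Genes of the same machinery from 2 further lists moved in the same direction in this comparison. Of 45 other mitosis genes, 28 rose and none fell, with a median of 0.65. The centromere genes Cenph and Cenpk rose by 1.73 ± 0.45 and 1.44 ± 0.23, and the spindle pole gene Aspm by 1.49 ± 0.21. Of 50 other replication genes, 30 rose and 1 fell, with a median of 0.66. Slbp, which binds histone messages, rose by 1.70 ± 0.39, the origin recognition subunit Orc5 by 1.69 ± 0.31 and the clamp loader subunit Rfc4 by 1.35 ± 0.28. The repressor E2f7 fell by 0.69 (standard error 0.19). Of 12 genes of the Rb family, repressor E2F and DREAM complex, 5 rose, led by the retinoblastoma gene Rb1 at 1.25 ± 0.15, Lin54, the DREAM subunit that reads the CHR, at 0.98 ± 0.17 and the E2F partner Tfdp1 at 0.93 ± 0.27.

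**Figure D4:**
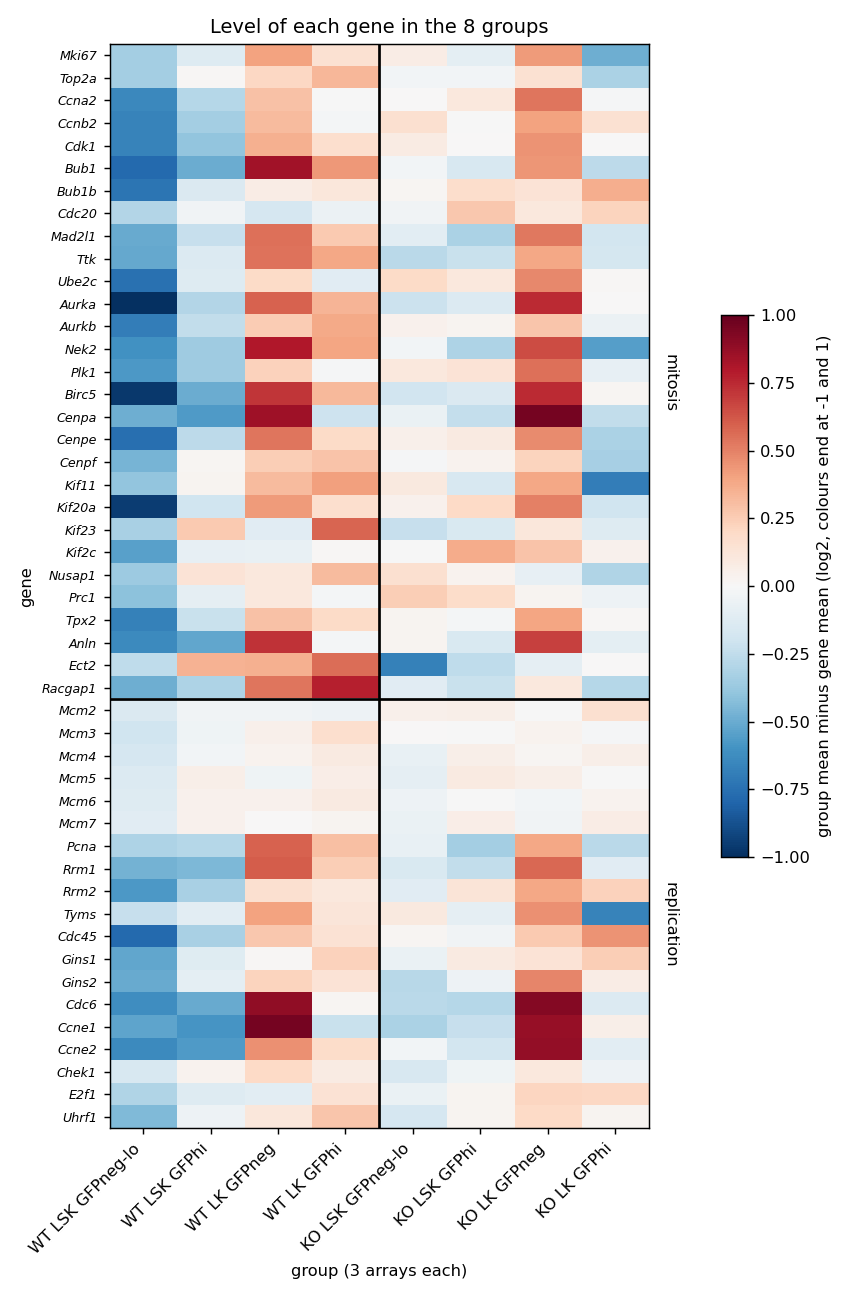
Mean log2 level of each of the 48 genes in the 8 groups of 3 arrays, minus the gene's mean, with mitosis genes above the line and replication genes below it. Blue in the first column shows the low WT LSK GFPneg-lo means, and the 6 MCM rows are pale throughout, with chosen probe sets that differed by 0.10 to 0.25 between WT LK GFPneg and WT LSK GFPneg-lo.

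WT LK GFPhi cells exceeded WT LSK GFPneg-lo cells in 17 mitosis and 10 replication genes, against 12.6% of all genes in either direction and 4.73% in the higher one. The medians were 0.80 and 0.44, the latter 0.72 without _x and _s probe sets. For the 34 mitosis probe sets not chosen the median was 0.25. Aurka rose by 1.38 ± 0.34 (limma adjusted p = 0.00938), Birc5 by 1.29 ± 0.35 (adjusted p = 0.0177) and Racgap1, which organises the cleavage furrow, by 1.26 ± 0.27 (adjusted p = 0.00289). Racgap1 had 7.62, 7.45 and 8.38 in LSK GFPneg-lo and 9.41, 8.59 and 9.24 in LK GFPhi, without overlap. Cdc45 rose by 0.92 ± 0.25, Ccne2 by 0.82 ± 0.23, Rrm1 by 0.72 ± 0.22 and Uhrf1 by 0.72 ± 0.13. The second Cdc45 probe set differed by 0.07. Here E2f1 (0.44 ± 0.14), Mcm3 (0.37 ± 0.12) and Mcm4 (0.26 ± 0.08) also passed, with limma adjusted p of 0.0358, 0.0392 and 0.0328. Cenpa and Ccne1, which were high in LK GFPneg, differed by 0.28 and 0.30 and did not pass. Of the other lists, 14 of 45 mitosis, 10 of 50 replication and 2 of 12 Rb, E2F and DREAM genes rose, and Tfdp2, a partner of E2F proteins, fell by 0.95 (standard error 0.12). The count of 27 members fell to 9 without WT LK GFPhi replicate 3, to 10 without WT LSK GFPneg-lo replicate 1, to 13 without replicate 2 of that group and to 15 without WT LK GFPhi replicate 1. With only these 6 arrays in the fit it was 13, at 8.71% of all genes.

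The step from WT LSK GFPneg-lo to WT LSK GFPhi gave 0 called members among 4.52% of all genes, with 10 mitosis and 3 replication genes at an unadjusted p under 0.05. The 4.52% refers to adjusted p, and the share of all genes at the unadjusted threshold was not taken. The differences were positive for 28 of 29 mitosis and 18 of 19 replication genes, and their medians were 0.37 and 0.16. Of 45 other mitosis genes 2 rose (Cdca5, which protects sister chromatid cohesion, by 0.77 ± 0.15 and Fbxo5, an inhibitor of the anaphase ligase, by 0.37 ± 0.10), no gene of 50 in the other replication list passed, and Tfdp2 fell by 0.51 (standard error 0.12). With the replicate number as a block, 8 mitosis and 2 replication genes rose, against 8.09% of all genes. They were Kif20a, Aurka, Ect2, Nusap1, Ube2c, Bub1b, Top2a, Kif23, Gins2 and Uhrf1. Ect2, a cytokinesis gene, had 9.95, 10.14 and 10.27 against 10.73, 10.66 and 10.77 in LSK GFPhi, and Ube2c, the conjugating enzyme of the anaphase ligase, had 9.48, 9.92 and 9.94 against 10.36, 10.50 and 10.34. Neither gene's arrays overlapped.

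Between LSK GFPhi and LK GFPneg in WT mice, 11 mitosis and 5 replication genes were higher in LK GFPneg, against 29.1% of all genes and 15.1% in the higher direction. The medians were 0.58 and 0.16, the latter -0.023 after quantile normalization and 0.83 without _x and _s probe sets. Ccne1 rose by 1.54 ± 0.31 (limma adjusted p = 0.00072) and Cdc6 by 1.39 ± 0.21 (adjusted p = 2.73e-05), beside Cenpa above. The block gave 18 and 8 genes, all higher, at 38.7% of all genes. The 16 calls became 10 without WT LSK GFPhi replicate 2 and 9 without WT LK GFPneg replicate 3. Between LSK GFPhi and LK GFPhi, 2 genes were higher in LK GFPhi, Racgap1 by 1.09 ± 0.27 (limma adjusted p = 0.0238) and Rrm2 by 0.43 ± 0.11 (adjusted p = 0.0327), against 4.55% of all genes, and 17 with the block, at 13.4%. No call was left without replicate 1 of either group or without WT LK GFPhi replicate 3, there was 1 without WT LSK GFPhi replicate 2, and there were 4 without WT LSK GFPhi replicate 3 and 8 without WT LK GFPhi replicate 2.

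The 2 WT LK populations differed in 4 members, all lower in LK GFPhi, against 18.6% of all genes. Ccne1 fell by 1.18 (standard error 0.31, limma adjusted p = 0.00942), Cenpa by 1.05 (0.16, adjusted p = 3.94e-05), Cdc6 by 0.87 (0.21, adjusted p = 0.00411) and the cleavage furrow scaffold Anln by 0.74 (0.25, adjusted p = 0.0424). Anln had 10.36, 9.91 and 10.29 in LK GFPneg and 9.56, 9.12 and 9.66 in LK GFPhi. None of these 4 genes had overlapping arrays in the 2 populations. The medians of all members were -0.19 for mitosis and -0.05 for replication genes, the latter -0.24 without _x and _s probe sets. The block gave 7 calls, 5 lower and 2 higher, at 25.9% of all genes, and leaving out WT LK GFPhi replicate 1 gave 2.

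In the KO mice the median deviations of the mitosis genes were -0.02, -0.20 and 0.20 on the 3 LSK GFPneg-lo arrays, 0.13, -0.19 and -0.07 in LSK GFPhi, 0.53, -0.09 and 0.64 in LK GFPneg and -0.13, -0.48 and 0.04 in LK GFPhi. Each KO population overlapped each of the others. Replicate 2 was the lowest KO array for 19, 21, 25 and 23 of 29 mitosis genes in LSK GFPneg-lo, LSK GFPhi, LK GFPneg and LK GFPhi. It was the lowest WT array for 10, 17, 17 and 22. Replicate 3 was the highest for 19, 11, 17 and 20 in KO and for 27, 23, 21 and 20 in WT mice. The commonest KO order from highest to lowest mean was LK GFPneg, LSK GFPneg-lo, LSK GFPhi, LK GFPhi, in 10 mitosis genes. The order most often seen in WT held for 4 mitosis and 5 replication genes in KO.

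KO LSK GFPneg-lo cells had higher signals than their WT counterparts in most members, of which 3 passed the test, against 2.14% of all genes and 1.26% in the higher direction. Differences were positive for 28 of 29 mitosis genes, with a median of 0.65 or 1.57-fold, and for 18 of 19 replication genes, with a median of 0.24 or 1.18-fold. Without _x and _s probe sets the replication median was 0.41 and the mitosis median 0.65. For the 34 mitosis probe sets not chosen the median was 0.23. Among genes with several probe sets, all of them had the same sign for 14 of 20 mitosis genes and 8 of 16 replication genes. The counts of positive differences thus hold for the chosen probe sets. The median over all genes was 0.03. At an unadjusted p under 0.05 there were 17 mitosis and 4 replication genes. The share of all genes under that unadjusted threshold was not taken, so these 2 counts are not set against the array. The arrays of the 2 genotypes did not overlap for 15 and 4 genes, against 15.9% of all genes. This comparison uses the same 3 WT LSK GFPneg-lo arrays as the WT comparisons above.

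Ube2c had 9.48, 9.92 and 9.94 on the WT and 11.07, 10.33 and 10.76 on the KO arrays, a rise of 0.94 ± 0.20 (limma adjusted p = 0.0141). Prc1, which bundles the microtubules of the central spindle, had 10.61, 10.85 and 11.13 against 11.66, 11.34 and 11.55, a rise of 0.65 ± 0.14 (limma adjusted p = 0.0152). Rrm2, the S-phase subunit of ribonucleotide reductase, had 11.30, 11.62 and 11.80 against 12.02, 11.98 and 12.11, a rise of 0.46 ± 0.11 (limma adjusted p = 0.0362). All 3 KO arrays lay above all 3 WT arrays for each of these genes. The motor gene Kif20a had the largest difference, 0.99 ± 0.32, with 7.27, 7.57 and 8.02 against 8.80, 8.27 and 8.77, and did not pass (limma adjusted p = 0.146). Cdk1 read 10.87, 10.41 and 10.91 in KO, above its 3 WT values, and its difference of 0.75 ± 0.27 did not pass either (limma adjusted p = 0.246). Ccna2 (0.65), Bub1b (0.75) and Plk1 (0.68) had limma adjusted p of 0.0515, 0.0563 and 0.0583.

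The one mitosis gene with a negative difference was Ect2, with 9.95, 10.14 and 10.27 in WT against 9.67, 9.38 and 10.04 in KO, a difference of -0.42 ± 0.21 that did not pass (limma adjusted p = 0.551). Mki67 and Top2a, which untangles sister chromatids, differed by 0.41 ± 0.26 and 0.31 ± 0.16 and did not pass. Among replication genes the largest was Cdc45 at 0.80 ± 0.25, with 7.83, 7.90 and 7.84 in WT against 8.87, 8.40 and 8.69 in KO, without overlap and without passing (limma adjusted p = 0.125). A second Cdc45 probe set of similar brightness, 8.52 against 8.63, differed by -0.03, so the Cdc45 difference is that of 1 probe set. The MCM genes differed by 0.05 to 0.20, Pcna by 0.24 and Chek1 by -0.0040. The 13 other MCM probe sets had a median of 0.26, with a range of -0.08 to 0.67. The Chek1 probe sets next in brightness, with mean signals of 8.80 and 8.78, differed by 0.32 and 0.28. Of other mitosis genes 3 of 45 rose, Cdca5 by 0.59 ± 0.15, the chromosome motor Kif4 by 0.55 ± 0.14 and Fbxo5 by 0.45 ± 0.10. Of other replication genes 1 of 50 did, E2f7 by 0.78 ± 0.19, and of the Rb, E2F and DREAM genes 0 of 12 passed, with 2 at an unadjusted p under 0.05.

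Samples with the same replicate number deviated together across the 2 genotypes in this population, and with that number as a block 18 mitosis and 2 replication genes rose, at 4.64% of all genes. They included the 3 above, Kif20a (adjusted p = 0.00219), Ccna2 (0.00295), Ccnb2 (0.0034), Cdk1 (0.00619) and Cdc45 (0.0129), all by limma. Without the block the 3 calls became 0 on leaving out WT LSK GFPneg-lo replicate 1, KO LSK GFPneg-lo replicate 1 or KO LSK GFPneg-lo replicate 3, and 6 without WT LSK GFPneg-lo replicate 3. With only these 6 arrays in the fit there was 1 call, at 1.09% of all genes, and it was none of the 3. The WT LSK GFPneg-lo arrays had an SD of 0.63 in Nek2 and of 0.76 in Kif11 (n = 3).

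Markers of other cells differed between the same arrays. The 6 mast cell, basophil and eosinophil markers (such as Cpa3 and Prg2) had mean signals of 6.88, 6.90 and 6.80 in WT and 7.71, 7.97 and 8.07 in KO LSK GFPneg-lo. The 8 granulocyte and monocyte progenitor markers (such as Mpo and Elane) had 9.21, 9.03 and 9.37 against 9.63, 9.88 and 10.20. Both lists were higher on every KO array than on every WT array. Stem cell markers had 10.15 to 10.37 in WT and 10.24 to 10.66 in KO, and macrophage markers stayed between 5.91 and 6.47 on all 24 arrays. The part of these markers in the difference of the cell division genes was not tested.

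**Figure D5:**
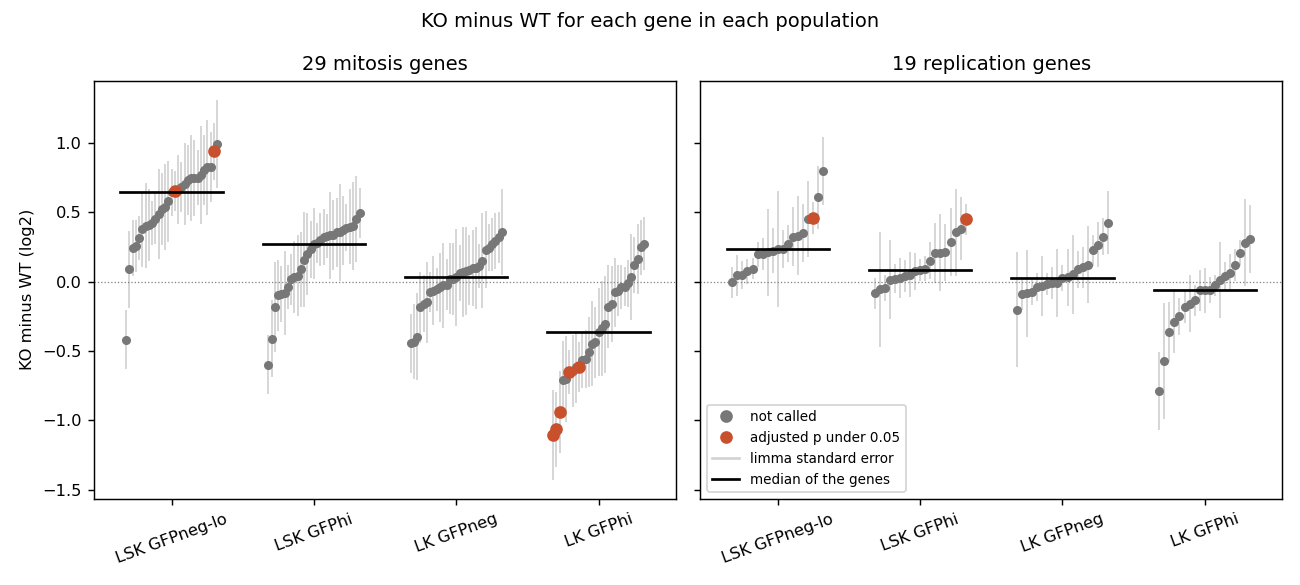
KO minus WT difference (log2, with limma standard errors) of each of the 29 mitosis genes (left) and 19 replication genes (right) in the 4 populations, sorted within a population, with called genes in red and a bar at the median. The mitosis median is 0.65 in LSK GFPneg-lo, near 0 in LK GFPneg at 0.03, and -0.36 in LK GFPhi.

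In LSK GFPhi the KO effect was smaller, with medians of 0.28 and 0.08 (the latter 0.17 without _x and _s probe sets), and the 1 called member was Rrm2, against 4.60% of all genes. Rrm2 had 11.69, 11.94 and 11.84 in WT and 12.36, 12.19 and 12.27 in KO, a rise of 0.45 ± 0.11 (limma adjusted p = 0.0225) with no overlap. Its call was lost without _x and _s probe sets and without replicate 1 or replicate 3 of either genotype. Cdk1 differed by 0.40 ± 0.27, Plk1 by 0.50 ± 0.18 and Ect2 by -0.60 ± 0.21, and none passed. Of 50 other replication genes 3 rose, which were Asf1b, a histone chaperone, by 0.59 ± 0.14, Pold2, a polymerase delta subunit, by 0.66 ± 0.17 and E2f7 by 0.69 ± 0.19. Mast cell, basophil and eosinophil markers had 7.30 to 7.74 on the KO and 6.48 to 6.62 on the WT arrays here, and their part was not tested.

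In LK GFPneg no member passed, against 2.65% of all genes, and 1 replication gene and no mitosis gene had an unadjusted p under 0.05. Both medians were 0.03. Birc5 had 10.65, 10.41 and 10.78 in WT and 10.94, 9.87 and 11.13 in KO, so that the WT arrays lay inside the KO range, and Mki67 (12.90 ± 0.21 against 12.92 ± 0.39, SD, n = 3) and Cdc6 (11.12 ± 0.17 against 11.15 ± 0.35) had nearly equal means. With the block, at 4.88% of all genes, E2f1 rose by 0.33 (limma adjusted p = 0.0198), with 8.86, 9.15 and 9.05 in WT and 9.22, 9.57 and 9.25 in KO. Of the other replication genes 1 of 50 rose, the activator E2f2, by 1.25 ± 0.15.

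KO LK GFPhi cells had lower signals than WT LK GFPhi cells in 5 mitosis genes and in no called replication gene, against 9.56% of all genes and 3.79% in the lower direction. The medians were -0.36, a 1.29-fold decrease, and -0.06, while the median over all genes was 0.07. The replication median was -0.29 without _x and _s probe sets and -0.19 with median centring, and the mitosis median was -0.73 with array weights. For the 34 mitosis probe sets not chosen the median was -0.16. At an unadjusted p under 0.05 there were 11 mitosis and 2 replication genes, and the share of all genes at that threshold was not taken. The arrays did not overlap for 7 and 3 genes, against 24.8% of all genes.

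Kif11, the motor that pushes spindle poles apart, had 9.77, 10.28 and 10.15 in WT and 8.88, 9.49 and 8.52 in KO, and fell by 1.11 (standard error 0.32, limma adjusted p = 0.0364). Its other probe sets, with mean signals of 9.17 and 7.75, differed by -0.15 and -0.26, and with the mean of all 3 it did not pass (-0.51, limma adjusted p = 0.183). Racgap1 had 9.41, 8.59 and 9.24 against 7.94, 7.82 and 8.30, and fell by 1.06 (0.27, adjusted p = 0.0161). A second Racgap1 probe set of similar brightness, 8.09 against 8.31, differed by -0.17. Nek2, a centrosome kinase, had 10.12, 9.99 and 10.65 against 9.37, 9.12 and 9.45, and fell by 0.94 (0.29, adjusted p = 0.0494). For these genes every KO array lay below every WT array. Top2a had 12.87, 12.52 and 12.80 against 12.20, 11.83 and 12.21, and fell by 0.65 (0.16, adjusted p = 0.0114). The kinetochore gene Cenpf had 10.29, 10.34 and 10.40 against 9.92, 9.44 and 9.82, and fell by 0.62 (0.18, adjusted p = 0.0368). Both genes were also without overlap. Dimmer probe sets gave -0.57 for Nek2, -0.59 for Top2a and -0.04 for Cenpf, those next in brightness to the chosen ones. Each of these genes also had a further probe set with a positive difference, which was 0.09 for Cenpf at a mean signal of 6.33.

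On the chosen probe sets the mitotic cyclins and some of the kinases had smaller differences in LK GFPhi. Cdk1 differed by -0.16 ± 0.27, Ccna2 by -0.01 ± 0.17, Ccnb2 by 0.17 ± 0.25, Plk1 by -0.07 ± 0.18 and Bub1b by 0.25 ± 0.20, and none passed. The probe sets next in brightness, with mean signals of 10.09 for Ccna2 and 9.66 for Bub1b, differed by -0.41 and -0.07. Among other kinases Bub1 differed by -0.70, Aurkb by -0.44 and Aurka by -0.34, and these did not pass either. Mki67 had 12.72, 12.43 and 12.81 in WT and 12.41, 11.54 and 12.09 in KO, without overlap, and its difference of -0.64 ± 0.26 did not pass (limma adjusted p = 0.127). Tyms had the largest difference among replication genes, with 7.92, 7.45 and 7.98 in WT against 7.14, 7.12 and 6.73 in KO, which were separate but did not pass (-0.79 ± 0.28, limma adjusted p = 0.0875). A second Tyms probe set went the other way, with means of 6.10 in WT and 7.20 in KO, so the direction for Tyms depends on the probe set. Pcna differed by -0.57 ± 0.42 and the MCM genes by -0.18 to 0.21. Of other mitosis genes 2 of 45 fell, Aspm by 0.78 (standard error 0.21) and Fbxo5 by 0.36 (0.10), and the G2 activator Mybl2 rose by 0.98 ± 0.31. Of other replication genes 6 of 50 fell, among them the origin-firing kinase Cdc7 by 0.99 (0.27), the checkpoint mediator Clspn by 0.84 (0.17) and the polymerase subunit Pola1 by 0.69 (0.18). Of the 12 Rb, E2F and DREAM genes the pocket protein gene Rbl1 fell by 0.92 (0.29) and the DREAM subunit Lin9 by 0.62 (0.16).

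The LK GFPhi calls depended on the fit. Same-numbered arrays deviated together here too, and with the block 14 mitosis and 2 replication genes fell, at 22.2% of all genes, with limma adjusted p of 0.00011 for Racgap1, 0.00024 for Top2a and 0.00355 for Mki67. With only these 6 arrays in the fit, 0 members passed, at 2.70% of all genes. Leaving out WT LK GFPhi replicate 3 gave 0 calls, WT LK GFPhi replicate 1 or KO LK GFPhi replicate 2 gave 1, and KO LK GFPhi replicate 1 gave 3. The mitosis median was -0.62 without WT LK GFPhi replicate 2 and -0.13 without WT LK GFPhi replicate 3. Mast cell, basophil and eosinophil markers had 6.95, 6.55 and 6.96 on the WT and 8.87, 9.50 and 11.16 on the KO arrays of this population. Early lymphoid markers (such as Flt3 and Dntt) had 10.22 to 10.58 against 8.31, 8.07 and 9.16, erythroid and megakaryocyte markers 7.02 to 7.56 against 8.04, 8.27 and 9.11, and stem cell markers 7.20 to 7.71 against 8.64 to 8.73. All 4 lists were separate between the genotypes, and KO LK GFPhi replicate 3 had the highest signals of the first 3 among the KO arrays. Their part in the lower mitosis signals was not tested.

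Whether the KO effect itself differed between populations was tested as an interaction. Without the replicate block, none of 4 interactions called a member. LSK GFPhi against LSK GFPneg-lo had 0.313% of all genes called and 1 member at an unadjusted p under 0.05, LK GFPneg against LSK GFPneg-lo 0.808% and 7 members, LK GFPhi against LSK GFPhi 0.143% and 8, and LK GFPhi against LK GFPneg 2.50% and 6. These percentages refer to adjusted p, and the shares of all genes at the unadjusted threshold were not taken. In LK GFPhi against LK GFPneg the numbers paired the samples. With the block 4 members had a lower KO effect in LK GFPhi there, Top2a, Kif11, Kif23 and Nek2, at 4.99% of all genes. The contrast of the populations with the most opposed medians, chosen after these values were seen, was LK GFPhi against LSK GFPneg-lo, with 2 called members at 1.03% of all genes. Since the pair was picked for that opposition, its test is not independent of the values above. Top2a had KO minus WT differences of 0.31 in LSK GFPneg-lo and -0.65 in LK GFPhi, an interaction of -0.97 ± 0.22 (limma adjusted p = 0.0412). Cenpf had 0.45 and -0.62, an interaction of -1.07 ± 0.26 (limma adjusted p = 0.0496). The medians were -0.89 for mitosis and -0.34 for replication genes, the latter -0.81 without _x and _s probe sets. With only these 12 arrays in the fit 0 members passed, at 0.313% of all genes. Both calls were lost without replicate 1 or 2 of WT LSK GFPneg-lo, without any 1 array of KO LSK GFPneg-lo, without replicate 1 or 3 of WT LK GFPhi and without replicate 2 of KO LK GFPhi. There was 1 call without KO LK GFPhi replicate 3, and there were 5 without WT LSK GFPneg-lo replicate 3. LK GFPneg against LSK GFPhi, also added, called 0 members at 1.97% and had none at an unadjusted p under 0.05.

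The comparisons between the KO populations were also added after the values were seen. KO LK GFPneg exceeded KO LSK GFPneg-lo in 3 mitosis genes (Cenpa, Ttk and Ccna2) and 6 replication genes (Cdc6, Ccne1, Ccne2, Gins2, Rrm1 and Rrm2). Over all genes 22.7% passed in either direction, so these counts are not read as more calls than on the whole array. The medians were 0.37 and 0.28, the latter 0.50 without _x and _s probe sets. Cenpa had 11.35, 10.85 and 11.30 in KO LSK GFPneg-lo and 12.33, 11.98 and 12.27 on the KO LK GFPneg arrays. Cdc6 had 9.93, 9.79 and 10.18 against 11.20, 10.78 and 11.48. Neither gene's arrays overlapped. The 9 calls became 18 without KO LK GFPneg replicate 2, and with the block, which paired these arrays, there were 20 at 32.6% of all genes. KO LK GFPneg exceeded KO LSK GFPhi in 10 members, at 25.9% of all genes in either direction. There were 5 without KO LK GFPneg replicate 3, 6 without KO LSK GFPhi replicate 2 and 19 without KO LK GFPneg replicate 2.

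KO LK GFPhi was below KO LK GFPneg in 10 mitosis and 4 replication genes, at 23.4% of all genes in either direction. The medians were -0.55 and -0.16, the latter -0.63 without _x and _s probe sets. The mitosis genes were Cenpa, Nek2, Kif11, Mki67, Cenpe, Anln, Plk1, Cenpf, Ccna2 and Top2a, and the replication genes Tyms, Cdc6, Ccne2 and Rrm1. Plk1 had 10.24, 10.40 and 10.41 on the KO LK GFPneg arrays, above the 9.66, 9.64 and 9.86 of KO LK GFPhi. In WT mice Plk1 read 9.68, 10.20 and 10.22 in LK GFPneg and 9.42, 9.84 and 10.10 in LK GFPhi, which overlapped. The interaction of Plk1 for these populations, -0.38 ± 0.26, did not pass (limma adjusted p = 0.728). The 14 calls became 5 without KO LK GFPneg replicate 3, 6 without KO LK GFPhi replicate 2 and 7 without KO LK GFPneg replicate 1, and 25 with the block at 33.9% of all genes. KO LK GFPhi and KO LSK GFPneg-lo differed in 1 member, Ect2, higher in LK GFPhi, at 11.3% of all genes, and the call was lost without KO LSK GFPneg-lo replicate 1 or 2 or KO LK GFPhi replicate 3. In WT mice 27 members were called between the corresponding populations, in arrays that the KO pair does not use. KO LSK GFPhi against KO LSK GFPneg-lo called 0 members at 2.36%, with 1 at an unadjusted p under 0.05, and KO LK GFPhi against KO LSK GFPhi called 0 at 1.18%, with none.

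A few members kept their own pattern over the 8 groups. Cdc20, read through an _x probe set, had group means of 12.08 to 12.64 and was called in no WT comparison. Its next probe set, with a mean signal of 10.7, was higher by 0.69 in WT LK GFPneg, 0.54 in WT LK GFPhi and 0.69 in KO LSK GFPneg-lo than in WT LSK GFPneg-lo, so this pattern is that of 1 probe set. Ccne1 and Cdc6 stood high in LK GFPneg of both genotypes, with means of 11.76 ± 0.20 and 11.67 ± 0.15 for Ccne1 in WT and KO LK GFPneg (SD, n = 3) and at most 10.86 ± 0.18 elsewhere. Cenpa did the same, with 12.08 ± 0.03 and 12.20 ± 0.19 against at most 11.17 ± 0.27. Rrm2 was called higher in KO in 2 populations, LSK GFPneg-lo and LSK GFPhi, and it read 12.42, 12.42 and 12.09 in WT LK GFPneg against 12.51, 12.55 and 12.54 in KO, separate but not called. Ect2 had lower KO than WT means in all 4 populations, with differences of -0.60 to -0.42, and passed in none of them without the block. With it Ect2 fell in LK GFPhi (limma adjusted p = 0.0170), where the numbers paired the samples. The chosen Tyms probe set had its lowest mean of the 8 groups in KO LK GFPhi, whose 3 arrays lay between 6.73 and 7.14, against a mean of 7.78 ± 0.29 in WT LK GFPhi, while the second probe set had its highest mean there. Uhrf1 in WT climbed from 11.28, 11.26 and 11.55 in LSK GFPneg-lo to 12.25, 11.86 and 12.13 in LK GFPhi, with separate arrays, and its KO means lay between 11.64 and 12.00. E2f1 had means of 8.83 ± 0.21 to 9.35 ± 0.19, a small range, with its lowest in WT LSK GFPneg-lo and its highest in KO LK GFPneg.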

How the data were processed

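Gene expression was measured on 24 Affymetrix arrays, 3 in each of 8 groups, from biotinylated cRNA made from 6 ug of total RNA per the labels' protocols. The deposited values are log2 signals that the authors made with RMA (robust multi-array average), per the submitters' processing notes (version not given in the sources used here). RMA gives all arrays 1 distribution of probe signals before summarising them, so a change shared by most genes is not seen. Of 45101 probe sets, 64 were controls, 932 had several gene symbols and 9160 none in the platform annotation. The other 34945 gave 18193 genes, 34741 of these probe sets were also matched by Entrez identifier to RefSeq, and 0 symbols were updated. Each gene took its brightest probe set over all arrays, with no filter on dim genes.

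A linear model with 8 group means was fitted to all 18193 genes and 24 arrays with limma 3.58.1 in R 4.3.3 (16 residual degrees of freedom), and p-values were adjusted by Benjamini-Hochberg over all genes within a comparison, with a threshold of 0.05. Errors after ± are limma standard errors unless named SD. A negative difference that is described as a fall is given by its size. Counts at an unadjusted p under 0.05 and counts on leaving out an array have no share of all genes beside them. They are not read against the whole array. All arrays share 1 estimate of the spread, and their number, 3 a group, limits the precision. The fit was tested on simulated data with 200 changed genes. Same-numbered samples were taken as paired where the correlation of their deviations from the group means was above 0.1 for each number. The lowest was 0.171 over the WT pairs of populations. For KO against WT it was 0.276 in LSK GFPneg-lo, 0.359 in LK GFPneg, 0.175 in LK GFPhi and 0.0238 in LSK GFPhi, where the numbers did not pair. No label says what a number shares, and Eif2s3y differs between KO LK GFPhi replicate 3 and the other KO arrays numbered 3. Arrays of 1 group correlated at 0.979 to 0.996 over all genes.

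Named with values were all members of the list that a comparison turns on, the 3 called members with the largest rise and the 3 with the largest fall in each comparison, a panel of common markers, and up to 3 called genes each way from the other lists. The members and lists were chosen with earlier results of these data known. The alternatives were the replicate block, fits to the compared groups alone, leaving out each array, other probe set choices, leaving out the dimmest 40% of genes, a trended robust prior, array weights, median centring and quantile normalization. The KO population pairs, 2 interactions and the block within the compared groups were added after the values were seen. Lists of marker genes were summarised as their mean log2 signal on an array. Python 3.11.15 with pandas 2.3.3 made the tables.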

Additional observations from a re-analysis of the deposited data

Results flagged for a closer look

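In a test of the difference of the KO effect between LSK GFPneg-lo and LK GFPhi, 2 genes passed. This pair of populations was picked after the values were seen, because its medians were the most opposed, so the test is not independent of that observation. Both calls were lost on leaving out any 1 of 8 of the 12 arrays, and no member passed with only these 12 arrays in the fit. Top2a, with a KO effect of 0.31 in LSK GFPneg-lo and -0.65 in LK GFPhi, had a difference of effects of -0.97 ± 0.22 (limma adjusted p = 0.0412). Cenpf, with effects of 0.45 and -0.62, had -1.07 ± 0.26 (limma adjusted p = 0.0496). This was 1 probe set, since dimmer Cenpf ones had effects of 0.04 and -0.13 in LSK GFPneg-lo and -0.04 and 0.09 in LK GFPhi. In Top2a the KO arrays lay at 12.20, 11.83 and 12.21 in LK GFPhi and at 12.38, 12.26 and 12.47 in LSK GFPneg-lo, while the WT arrays ran the other way, with 12.87, 12.52 and 12.80 against 11.92, 11.90 and 12.34. In Cenpf the KO arrays lay at 9.92, 9.44 and 9.82 in LK GFPhi and between 9.91 and 10.23 in LSK GFPneg-lo, against 10.29, 10.34 and 10.40 and 9.34, 9.36 and 10.08 in WT.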

How the results depend on the processing

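The counts of calls in this section stand without the share of all genes called, which also moves with the setting. For KO against WT in LK GFPhi that share was 9.56% without and 22.2% with the replicate block. The counts are therefore not read as stronger or weaker effects on the members. With the replicate number as a block the members called became 20 (LSK GFPneg-lo), 3 (LSK GFPhi), 1 (LK GFPneg) and 16 (LK GFPhi) for the KO minus WT differences. Between WT populations the block gave 10 for LSK GFPhi against LSK GFPneg-lo, 17 for LK GFPhi and 26 for LK GFPneg against LSK GFPhi, and 7 for LK GFPhi against LK GFPneg. Between KO populations it gave 20 for LK GFPneg and 9 for LK GFPhi against LSK GFPneg-lo, 18 for LK GFPneg against LSK GFPhi and 25 for LK GFPhi against LK GFPneg. For interactions it gave 3 for LK GFPneg and 24 for LK GFPhi against LSK GFPneg-lo, 1 for LK GFPhi against LSK GFPhi and 4 for LK GFPhi against LK GFPneg. The replicate numbers did not pair the samples (lowest correlation under 0.1) in KO against WT of LSK GFPhi, in 2 KO population pairs and in all interactions but that of LK GFPhi against LK GFPneg. The block moved no other count of calls by over 1.5 times.

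With only the compared groups in the fit, the KO effect had 1 call in LSK GFPneg-lo and 0 in LK GFPhi, and the count was 1 for WT LSK GFPhi against LSK GFPneg-lo, 13 for WT LK GFPhi against LSK GFPneg-lo, 0 for WT LK GFPhi against LSK GFPhi, 0 for KO LK GFPhi against LSK GFPneg-lo, 8 for KO LK GFPhi against LK GFPneg and 0 for the interaction of LK GFPhi against LSK GFPneg-lo. Adding the block to these fits gave 18 for the KO effect in LSK GFPneg-lo, 18 for WT LSK GFPhi against LSK GFPneg-lo, 19 and 27 for WT LK GFPhi and LK GFPneg against LSK GFPhi, 9 for WT LK GFPhi against LK GFPneg, 16 for KO LK GFPneg against LSK GFPneg-lo and 23 for KO LK GFPhi against LK GFPneg, with 1, 18 and 3 for the interactions of LK GFPneg and of LK GFPhi against LSK GFPneg-lo and of LK GFPhi against LK GFPneg.

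Array weights gave 10 for the KO effect in LSK GFPneg-lo, 15 for that in LK GFPhi, 10 for WT LK GFPhi against LSK GFPhi, 21 and 2 for KO LK GFPneg and LK GFPhi against LSK GFPneg-lo, 25 for KO LK GFPneg against LSK GFPhi and 25 for KO LK GFPhi against LK GFPneg, and 16 and 2 for the interactions of LK GFPhi against LSK GFPneg-lo and LK GFPneg. They moved the mitosis median of KO against WT in LK GFPhi to -0.73 and of the interaction of LK GFPhi against LK GFPneg to -0.72. They moved the replication median to 0.14 for KO against WT in LSK GFPhi, 0.36 for WT LK GFPhi against LSK GFPhi and -0.30 for the interaction of these 2 populations. The mean of all probe sets of a gene gave 5 for the KO effect in LSK GFPneg-lo, 0 for that in LSK GFPhi, 1 for WT LSK GFPhi against LSK GFPneg-lo, 16 and 2 for KO LK GFPneg and LK GFPhi against LSK GFPneg-lo, 2 for the interaction of LK GFPhi against LK GFPneg, and a replication median of 0.32 for WT LK GFPneg against LSK GFPhi.

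Median centring gave 0 for KO against WT in LSK GFPhi, 23 and 20 for KO LK GFPneg against LSK GFPneg-lo and LSK GFPhi, and 26 for KO LK GFPhi against LK GFPneg. It moved the median over all genes by up to 0.21, from 0.03 to -0.19 in KO LK GFPhi against LK GFPneg. Its replication medians were -0.19 for KO against WT in LK GFPhi, 0.72, 0.33 and -0.16 for WT LK GFPneg against LSK GFPneg-lo, WT LK GFPneg against LSK GFPhi and WT LK GFPhi against LK GFPneg, and 0.48, 0.39 and -0.37 for the same KO pairs. Quantile normalization gave 0 for KO against WT in LSK GFPhi, 3 for WT LSK GFPhi against LSK GFPneg-lo, 1 for WT LK GFPhi against LSK GFPhi, 2 for KO LK GFPhi against LSK GFPneg-lo and 1 for the interaction of LK GFPhi against LSK GFPneg-lo. Its replication medians were 0.42 for WT LK GFPneg against LSK GFPneg-lo and -0.023 against LSK GFPhi. That interaction also fell to 1 call without the dimmest 40% of genes, without _x and _s probe sets and with a trended robust prior.

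Without _x and _s probe sets KO against WT in LSK GFPhi had 0 calls, and the replication medians were 0.41, 0.17 and -0.29 for the KO effect in LSK GFPneg-lo, LSK GFPhi and LK GFPhi. They were 1.07 and 0.72 for WT LK GFPneg and LK GFPhi against LSK GFPneg-lo, 0.83 and 0.52 against LSK GFPhi, and -0.24 for WT LK GFPhi against LK GFPneg. In KO mice they were -0.13, 0.50 and 0.0074 for LSK GFPhi, LK GFPneg and LK GFPhi against LSK GFPneg-lo, 0.66 for LK GFPneg against LSK GFPhi and -0.63 for LK GFPhi against LK GFPneg. For interactions they were -0.24, -0.43 and -0.81 for LSK GFPhi, LK GFPneg and LK GFPhi against LSK GFPneg-lo and -0.39 for LK GFPhi against LSK GFPhi. One gene changed direction past the threshold, Mcm2 in KO LK GFPneg against KO LSK GFPhi, from -0.06 to 0.45 (limma adjusted p = 0.0208).

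Leaving out each array in turn gave 0 to 6 calls for the KO effect in LSK GFPneg-lo, 0 to 1 for LSK GFPhi and 0 to 4 for LK GFPhi, where the mitosis median ran from -0.62 to -0.13. The replication median of KO against WT in LSK GFPhi ran from 0.069 to 0.18. WT pairs gave 0 to 1 for LSK GFPhi and 9 to 29 for LK GFPhi against LSK GFPneg-lo, 0 to 8 for LK GFPhi and 9 to 20 for LK GFPneg against LSK GFPhi (replication median 0.12 to 0.28), and 2 to 4 for LK GFPhi against LK GFPneg. KO pairs gave 6 to 18 for LK GFPneg (replication median 0.20 to 0.46) and 0 to 1 for LK GFPhi against LSK GFPneg-lo, 5 to 19 for LK GFPneg against LSK GFPhi and 5 to 21 for LK GFPhi against LK GFPneg. Interactions gave 0 to 5 for LK GFPhi against LSK GFPneg-lo (replication median -0.43 to -0.20), 0 to 1 for LK GFPhi against LK GFPneg, and a replication median of -0.24 to -0.12 for LK GFPhi against LSK GFPhi. The cause was not tested for any of these changes. Over all alternatives 279 counts of calls stayed within 1.5 times the reported one and 109 did not, and 734 medians moved by less than the spread between arrays and 42 by more. Of values for single genes, 5998 kept direction and side of the threshold, 335 lost and 150 gained a call. No detection calls were used, so that signal over background sets no bound here.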
